A study of Drosophila melanogaster with 2 samples.

Results

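The 10 genes described here encode the E2F transcription factors, their retinoblastoma (Rb) family partners and the core of the fly DREAM complex: E2f1, E2f2, Dp, Rbf, Rbf2, Caf1-55, mip120, mip130, lin-52 and Myb. They were listed by gene symbol, and all 10 were found among the 13945 protein-coding genes that the Ensembl annotation places on the 6 main chromosome arms. Binding of sunspot (ssp) at these genes was read from chromatin immunoprecipitation followed by sequencing (ChIP-seq) on transgenic Drosophila melanogaster whose ssp is fused to the green fluorescent protein eGFP. The antibody was directed against the fluorescent tag, and the chromatin came from whole embryos of 0 to 24 h, sonicated to 200 to 800 bp. There was 1 group, ssp-eGFP embryos, with 2 biological replicates and no second genotype, stage or treatment, and a control library that the labels name is not analysed here. Because all tissues and stages were pooled, strong binding in few nuclei and weak binding in many cannot be told apart.

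E2F proteins bind DNA as heterodimers with Dp and switch genes of DNA replication and mitosis on or off. Rb family proteins bind the E2F subunit and hold those genes silent until cyclin-dependent kinases phosphorylate them, and in flies they also join the Myb-MuvB proteins in the DREAM complex. Sunspot has been described as a DNA-binding protein of the fly that raises the expression of E2f1 and of the replication clamp gene PCNA, and that Armadillo restrains downstream of Wingless.

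The data were lists of peaks on the dm6 assembly, each with a signal, the authors' own value for the strength of a peak, which here ranks peaks within a list. The list built from the 2 replicates together, called the combined list here, had 4948 entries and a median signal of 132.9, and the list that the authors call conservative had 4719. The separate lists of replicates 1 and 2 had 3606 and 3437 entries, with median signals of 96.78 and 85.93. Longer ranked lists also gave the candidates that failed the irreproducible discovery rate (IDR) threshold of 0.01. The lists hold no read counts, so sequencing depth is unknown and no counting interval can be given. A gene was counted as bound when a peak summit lay within 500 bp of any of its annotated transcription start sites (TSSs).

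Dp, Rbf2, mip130 and Myb had a combined-list peak at a start site, and E2f1, E2f2, Rbf, Caf1-55, mip120 and lin-52 had none. That is 4 of 10 members (40.0%), against 2984 of all 13945 protein-coding genes (21.4%) and 27.8% of the 10750 genes with a candidate of any strength at a TSS. The conservative list gave 4 of 10 members against 20.9% of all genes. The list of replicate 1 gave 3 of 10 against 18.0%, and that of replicate 2 gave 4 of 10 against 17.3%. With 10 genes, each member moves the share by 10 percentage points, and no test of the list was made. Genes with more start sites had peaks more often: 17.3% of genes with 1 TSS, 30.2% of those with 2 TSSs and 38.8% of those with 3 or more. Among the members, 3 of the 6 with 1 TSS and 1 of the 4 with 2 or more had a peak.

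**Figure D1:**
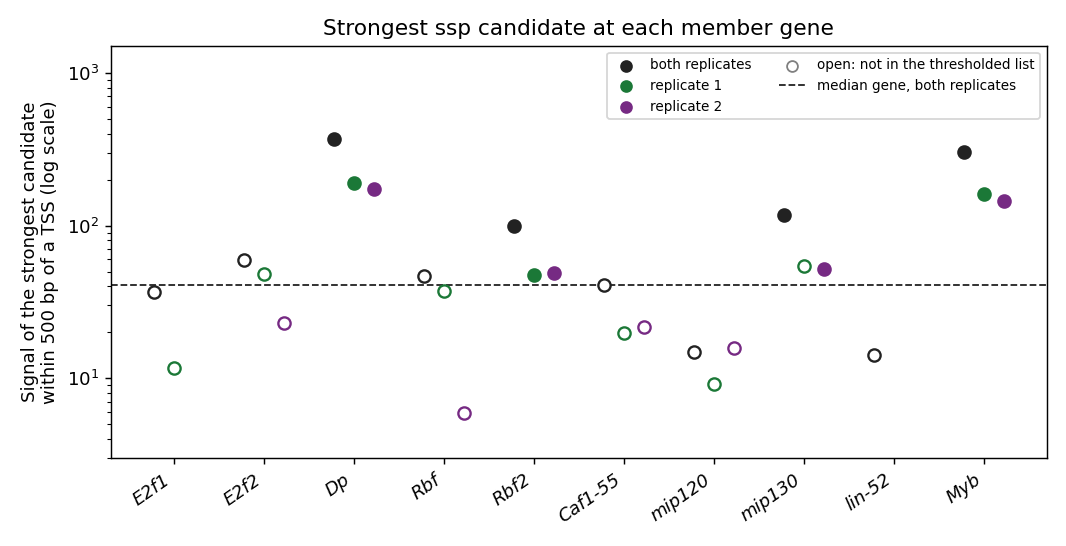
Signal of the strongest candidate within 500 bp of a TSS (log scale) for each of the 10 members, in the pooled ranked lists of both replicates and in each replicate, with filled points where the candidate is in the thresholded list. Dp and Myb stand highest in all 3 columns of points, and the dashed line marks the median over all genes with a pooled candidate, 40.9.

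E2f1, the activating E2F that drives entry into S phase, had no ssp peak at any of its 5 start sites (FBgn0011766, chr3R:21620304-21660871, minus strand). Its strongest pooled candidate, 482 bp upstream of a TSS and inside an E2f1 intron, reached a signal of 36.68 and an IDR of 0.791. Replicate 1 gave at most 11.62, at another of the start sites, and replicate 2 gave no candidate at any of them. In the pooled lists E2f1 stood above 44.2% of the genes with a candidate, close to the middle. The 300 bases of that candidate, chr3R:21633406-21633705 read on the minus strand of the Release 6 reference (dm6), are shown because E2f1 is the gene to which ssp has been linked. They run from 632 to 333 bp upstream of the TSS, and capitals mark the only match to the motifs searched, the cell-cycle element TTTGAA on the opposite strand.
E2f1: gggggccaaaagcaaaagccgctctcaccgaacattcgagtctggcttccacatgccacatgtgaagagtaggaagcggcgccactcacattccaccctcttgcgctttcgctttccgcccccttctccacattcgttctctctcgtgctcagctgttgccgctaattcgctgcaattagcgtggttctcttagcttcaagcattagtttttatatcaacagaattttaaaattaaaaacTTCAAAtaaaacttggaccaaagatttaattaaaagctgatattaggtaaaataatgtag

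Peaks did occur inside the E2f1 gene, which is 40568 bp long. The nearer lay 3234 bp upstream of a TSS, in an intron, with a combined signal of 96.19, and it was in neither replicate list. The other, also intronic, lay 3451 bp downstream of a TSS with a combined signal of 112.0, and the replicate lists gave it 72.26 and 42.7. The gene body held 43 pooled candidates in all, with a median signal of 20.4, and these 2 were the ones that passed.

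E2f2, the repressive E2F, also had no peak at its 2 start sites (FBgn0024371, chr2L:21154293-21156749, minus strand). Its strongest candidate, 11 bp upstream of a TSS, had a pooled signal of 59.81, and 48.52 and 22.91 in replicates 1 and 2. This was the strongest candidate among the 6 members without a peak, above 65.7% of genes, yet its IDR was 0.7 in the ranking behind the combined list and 0.199 in that behind the conservative list. The nearest combined peak, with a signal of 127.8, lay 1923 bp upstream of E2f2. It stood between the divergent genes Coq3 and Pld3, 61 bp and 175 bp upstream of their start sites, and the replicates gave it 73.43 and 49.6.

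Dp, the shared dimerization partner without which neither E2F binds DNA well, had the strongest signal among the members and was the only one with more than 1 peak at its start sites in the combined list (FBgn0011763, chr2R:13222433-13228202, plus strand, 3 TSSs). The main peak lay in a Dp intron, 237 bp upstream of the second TSS, with signals of 369.8 in the combined list, 189.2 in replicate 1 and 174.2 in replicate 2. It ranked 758 of 4948, above 84.7% of the list. A peak 57 bp upstream of the first TSS had 187.6 in the combined list, 104.9 in replicate 1 and 83.66 in replicate 2. Its summit was inside the 5′ UTR annotated for the neighbouring gene Fsn (FBgn0043010), which reads away from Dp, and lay 38 bp upstream of the nearest Fsn TSS, so it cannot be assigned to one of the pair. The weakest of the 3, 472 bp downstream of the second TSS and just inside the window, had 135.5, 75.74 and 58.58. All 3 Dp peaks passed the threshold in each replicate alone, and the main one reached an IDR of 1e-05 in both.

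**Figure D2:**
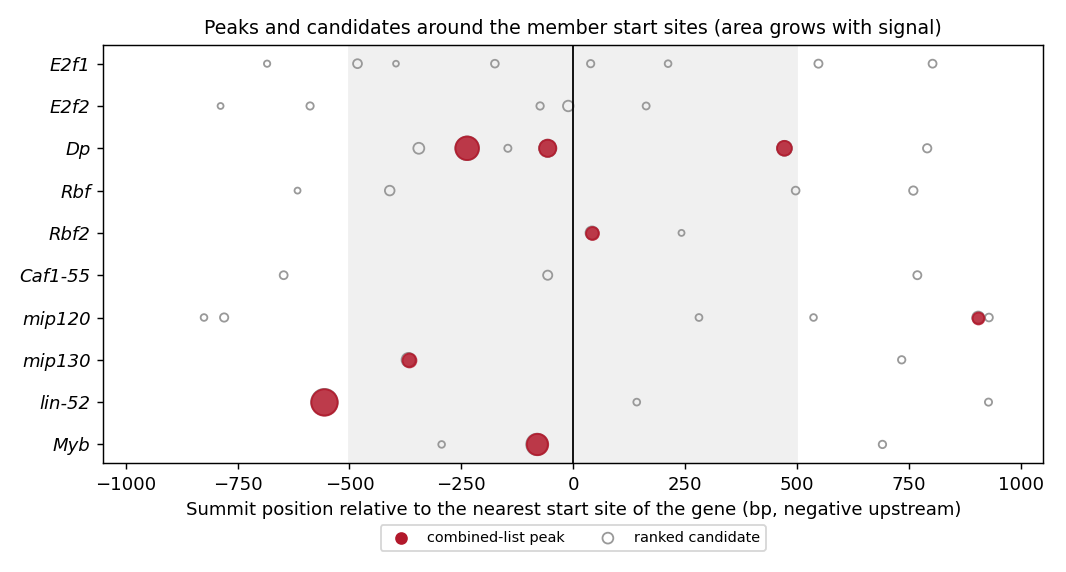
Summits of pooled ranked candidates (open circles) and combined-list peaks (filled circles) by distance in bp from the nearest TSS of each member, with negative values upstream, circle area growing with signal and the window of 500 bp shaded. The lin-52 peak, with a signal of 470.3, lies 556 bp upstream, just outside the window, and the Dp peak with 135.5 lies just inside it.

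Rbf, the main Rb protein of the fly, had no peak at its single TSS (FBgn0015799, chrX:797090-801479, minus strand). The strongest candidate reached 46.63 in the pooled lists, 410 bp upstream, with an IDR of 0.771. Replicate 1 gave 37.2 at the same place, and replicate 2 gave no more than 5.938, at a position downstream of the TSS. Rbf was also the member farthest from any combined peak, at 36255 bp. That peak, with a signal of 203.3, lay 94 bp upstream of RpL22, a ribosomal protein gene, and had 94.01 and 108.6 in the replicates.

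Rbf2, the second Rb protein, which pairs with the repressive E2f2, was bound at its start site with the lowest signal of the 4 bound members (FBgn0038390, chr3R:15965446-15968138, plus strand). The signal was 98.81 in the combined list, 47.16 in replicate 1 and 48.78 in replicate 2, with summits 42, 73 and 9 bp downstream of the TSS in the Rbf2 5′ UTR. The peak ranked 3400 of 4948, above 31.3% of the list. Its IDR was 0.00914 in the ranking behind the combined list and 0.00176 in that behind the conservative list, and the IDRs of 0.00574 and 0.00746 in the replicates also passed. The divergent gene CG32856 (FBgn0052856) starts 137 bp from the summit on the other side. The 94 bases between the start sites, chr3R:15965352-15965445 on the plus strand of the Release 6 reference, are shown because they lie under the peak and hold a DNA replication-related element (DRE). Capitals mark its letters TATCGATA, which begin 41 bp upstream of the Rbf2 TSS.
Rbf2: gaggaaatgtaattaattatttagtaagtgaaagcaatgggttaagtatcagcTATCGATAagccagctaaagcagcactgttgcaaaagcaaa

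Caf1-55, a WD-repeat histone-binding protein shared by DREAM and several chromatin complexes, had no peak (FBgn0263979, chr3R:15225576-15227564, plus strand). Its strongest candidate lay 57 bp upstream of the TSS, with 40.61 in the pooled lists, 19.89 in replicate 1 and 21.55 in replicate 2. It stood above 49.5% of genes with a candidate, and its lowest IDR was 0.447. The intergenic 246 bases under it, chr3R:15225330-15225575 on the plus strand of the Release 6 reference, are shown as a member promoter that holds the core CGATA without a DRE and without a peak. Capitals mark the core, which appears here as TATCG, its reading on the other strand, 112, 23 and 17 bp upstream of the TSS.
Caf1-55: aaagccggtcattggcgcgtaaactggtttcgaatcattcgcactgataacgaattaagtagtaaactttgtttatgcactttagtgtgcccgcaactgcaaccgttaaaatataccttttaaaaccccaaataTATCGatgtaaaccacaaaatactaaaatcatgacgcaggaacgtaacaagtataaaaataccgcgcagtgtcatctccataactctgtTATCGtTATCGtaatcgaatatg
The nearest combined peak to Caf1-55, 1461 bp upstream in a coding exon of CG31344, had 75.71 and was in neither replicate list, where the nearest peaks lay 3948 and 3962 bp downstream with 819.6 and 705.3.

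mip120, the fly relative of the DNA-binding DREAM subunit LIN54, was among the least marked members (FBgn0033846, chr2R:13506430-13513112, plus strand). Its strongest candidate in the pooled lists had a signal of 14.93, with 9.161 in replicate 1 and 15.72 in replicate 2, each at a different position around its 2 start sites. It stood above 10.1% of genes with a candidate. An intronic combined peak of 81.17 lay 905 bp downstream of a TSS and 222 bp upstream of mEFTu1, a mitochondrial elongation factor gene. Replicate 2 had it at 43.02, and the conservative list and the list of replicate 1 did not hold it.

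mip130, the fly relative of LIN9, had a peak toward the edge of the window (FBgn0023509, chrX:1908239-1920318, plus strand). The signal was 116.4 in the combined list with the summit 368 bp upstream of the TSS, 54.3 in replicate 1 and 51.7 in replicate 2. The replicates were alike in signal, but their IDRs of 0.0112 and 0.00218 fell on opposite sides of the threshold, so mip130 was in the list of replicate 2 and not in that of replicate 1. The summit lay in the 5′ UTR of the divergent gene Edem1 (FBgn0023511), which acts in the disposal of misfolded glycoproteins, 108 bp downstream of its nearest TSS. It was nearer to Edem1 than to mip130.

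lin-52, a small subunit that in human cells ties the Rb-like protein to the MuvB core, had the lowest value of the 10 at its own TSS and the strongest peak next to it (FBgn0029800, chrX:5753390-5754958, minus strand). Its only pooled candidate within the window had 14.29, and neither replicate gave one. The peak 556 bp upstream had a signal of 470.3 in the combined list and ranked 573 of 4948, higher than any peak at the members. Replicates 1 and 2 gave 227.8 and 239.8, with summits 551 and 520 bp upstream. This summit was 60 bp upstream of the TSS of the divergent gene CG15771 (FBgn0029801), and it was not counted for lin-52 because it lay outside the window.

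Myb, the DNA-binding subunit needed for mitotic gene expression, was bound close to its single TSS (FBgn0002914, chrX:15854832-15857823, minus strand). The signal was 301.3 in the combined list, 160.3 in replicate 1 and 145.4 in replicate 2, with summits 81, 84 and 98 bp upstream. The peak ranked 961 of 4948, above 80.6% of the list, and reached an IDR of 1e-05 in each replicate. Another annotated gene on the same strand, CG46440 (FBgn0287210), starts at the same base, and no further protein-coding gene starts within the window around the summit. The 181 bases upstream of the TSS, chrX:15857824-15858004 read on the minus strand of the Release 6 reference, are shown because they hold the summit and 2 copies of the DRE. Capitals mark the DRE letters TATCGATA, beginning 108 and 34 bp upstream of the TSS, a TATCG core between them at 90 bp, and one TTTGAA at 14 bp.
Myb: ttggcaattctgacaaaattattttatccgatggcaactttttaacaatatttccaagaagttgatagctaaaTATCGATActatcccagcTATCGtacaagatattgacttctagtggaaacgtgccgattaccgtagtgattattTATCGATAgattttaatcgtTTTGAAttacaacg

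**Figure D3:**
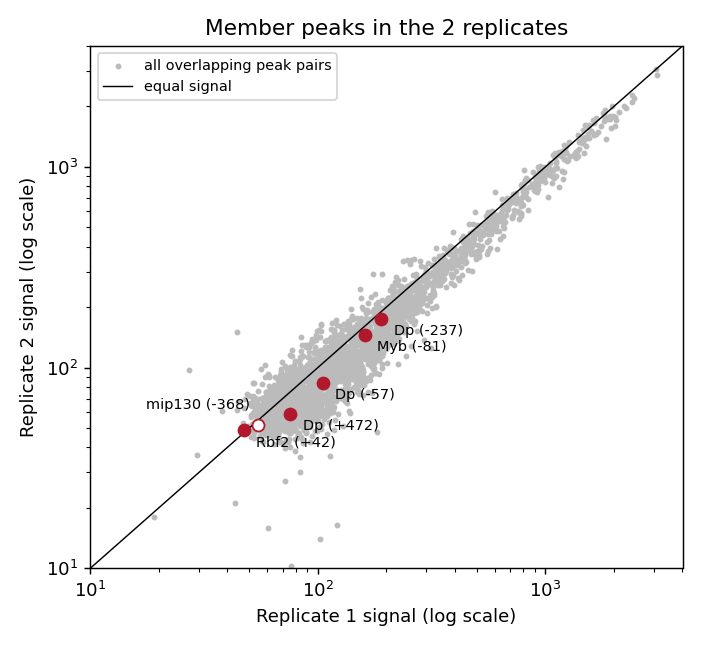
Signal of each member peak in replicate 2 against replicate 1 (log scales), over all 2661 overlapping pairs of thresholded peaks in grey, with the open point for mip130, which did not pass in replicate 1. The member points follow the grey cloud along the line of equal signal, with Dp and Myb highest.

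The replicates gave similar signals at the member peaks. The log2 ratio of replicate 2 to replicate 1 was -0.12, -0.33 and -0.37 at the Dp peaks, 0.05 at Rbf2, -0.07 at mip130 and -0.14 at Myb. Over all 2661 overlapping pairs the median was -0.21 with an SD across pairs of 0.37, and all 6 member values lay in the range that held the central 95% of pairs, -0.90 to 0.41. These ratios include any difference in scale between the 2 lists. The member peaks had passed the IDR filter of the combined list, and the 2661 pairs had passed in both replicate lists. Similar signals were thus partly selected for and are not a separate check on the peaks. The summits of the replicates were 0 to 14 bp apart at Dp, mip130 and Myb and 64 bp apart at Rbf2, beside a median of 15 bp over all pairs. The order of the bound members was Dp, Myb, mip130 and Rbf2 in the combined list and by candidate signal in both replicates, with mip130 and Rbf2 close to each other in each replicate.

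**Figure D4:**
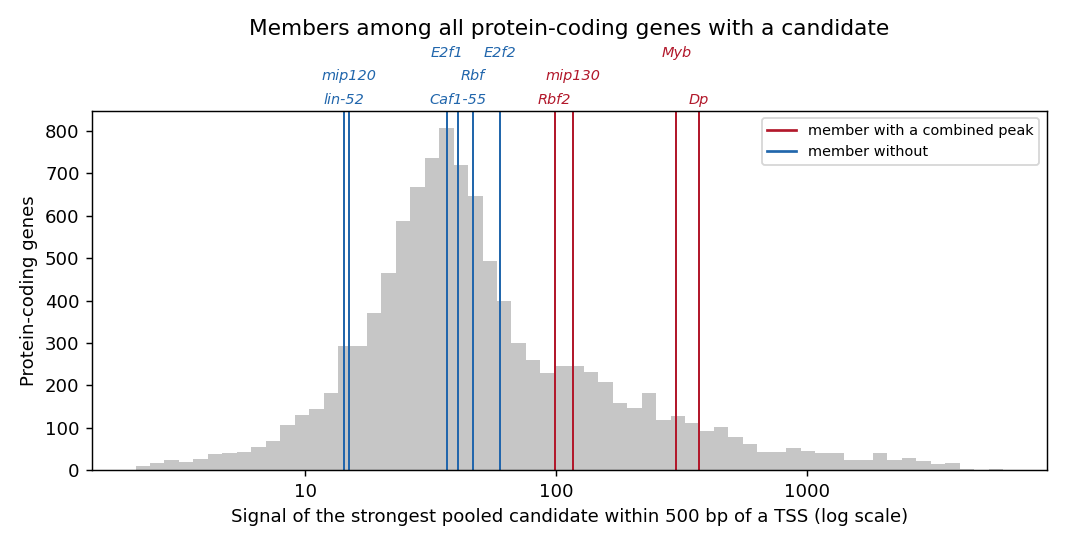
Distribution of the strongest pooled candidate signal within 500 bp of a TSS (log scale) over the 10750 protein-coding genes that have one, with a line for each member. Dp and Myb lie above 92.5% and 90.8% of these genes, and lin-52 and mip120 above 9.37% and 10.1%.

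Set on one scale with all genes, the members spread over almost the whole range. All 10 had a pooled candidate at a TSS, against 77.1% of genes, and their median strongest signal was 53.2, against 40.9 over all genes with a candidate (quartiles 25.0 and 92.9). Dp, Myb, mip130 and Rbf2 stood above 92.5, 90.8, 78.8 and 76.0% of the genes. E2f2, Rbf, Caf1-55 and E2f1 lay between 65.7 and 44.2%, and mip120 and lin-52 at 10.1 and 9.37%. Among genes without a peak, the members had a median strongest pooled signal of 38.6, against 31.6 for all such genes. For genes without a peak in the replicate's own list, the medians were 28.5 against 21.5 in replicate 1 and 18.6 against 19.5 in replicate 2. Replicate 1 counted mip130 (54.3) among these members, and replicate 2 did not. Members with no candidate in a replicate were left out there. The sets of members thus differed, and the direction cannot be compared between the replicates. By role, neither E2F had a combined peak within 500 bp of a TSS while their partner Dp did. The Rb proteins and the Myb-MuvB subunits each held bound and unbound genes.

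Motif letters were searched on both strands of the 301 bases from 250 before to 50 after each TSS. The E2F letters TTTCCCGC, TTTCGCGC, TTTGCCGC and TTTGGCGC occurred at 0 of 10 members, against 6.76% of all 19607 promoters. The cell-cycle element TTTGAA, known as the CHR and bound by LIN54 in human cells, occurred at 5 of 10 members, against 38.7% of promoters. The DRE letters TATCGATA, the site of the replication-gene factor Dref, occurred at Myb and Rbf2 alone, 2 of 10 members against 7.99% of promoters. The core CGATA, which overlaps the DRE and is also read by the insulator protein BEAF-32, occurred at 9 of 10 members, the exception being Rbf, against 45.8% of promoters. A member counts here if any of its promoters matched, so that genes with several start sites had more chances. The shares beside these counts take each promoter on its own, so counts and shares cannot be compared directly.

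Both members with a DRE were bound, and across the genome the DRE went with ssp peaks more often than the E2F letters did. Of 1566 promoters with a DRE, 583 (37.2%) had a combined peak at that TSS, against 17.6% of the 18041 without. For the E2F letters the shares were 20.0% with and 19.1% without. For the core CGATA, which the DRE contains, they were 23.9% and 15.2%, and for the CHR letters 20.5% and 18.3%. Within 100 bp of the summit, 10.4% of combined peaks at a TSS held a DRE, against 1.98% of candidates at a TSS that failed. The difference was not particular to the DRE. These shares were 44.4% and 25.2% for CGATA, 32.0% and 16.9% for the CHR letters, and 3.51% and 4.64% for the E2F letters. The bound and failing windows also differed in base composition, with median GC contents of 35.3% and 47.8%, and the part of this difference in the motif shares was not tested. The member windows had GC contents of 47.8, 51.7 and 33.3% at the Dp peaks, 39.3% at Rbf2, 40.8% at mip130 and 34.8% at Myb. The Dp and mip130 peaks held no DRE, and neither did the strong peak next to lin-52.

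The other DREAM and Rb pathway genes had peaks about as often as all genes, 3 of 13 (23.1%) against 21.4%. The strongest was at CycD, the cyclin whose kinase phosphorylates Rb proteins first: its main peak, 93 bp upstream, had 687.4 in the combined list, 418.4 in replicate 1 and 271.6 in replicate 2, higher than at any member. A further CycD peak 316 bp upstream had 309.2. Cdk2, the kinase partner of cyclin E, had 135.8, 63.39 and 72.23 at 53 bp upstream. CycE, which completes Rb phosphorylation, had 214.8 in the combined list at 442 bp upstream of a TSS and 105.4 in replicate 1, but at most 18.38 in replicate 2, where it did not pass. The strongest gene without a combined peak was mip40, the LIN37 relative in DREAM, with a pooled signal of 77.77 and 39.25 and 34.78 in the replicates, and the conservative list did hold it. Of the 13, only comr, a testis-specific relative of the pathway, had no candidate at all at a TSS.

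Of 20 textbook E2F or DREAM target genes, 9 had a combined peak at a TSS (45.0%), against 21.4% of all genes. The count was 8 in the conservative list (20.9% of all genes), 10 at 1000 bp (24.4%) and 6 at 200 bp (15.9%). Counting a peak only for its nearest TSS gave 6, against 15.8%. Peaks above the median signal left 3 of the 20, against 14.2% of all genes. No test of this list was made, and it was chosen with earlier results known. RnrS, the small subunit of ribonucleotide reductase, had 366.7 in the combined list, 186.9 in replicate 1 and 179.4 in replicate 2. The helicase gene Mcm2 had 211.5, 104.5 and 93.02, and the mitotic kinase Cdk1 had 211.0, 110.4 and 109.7. RnrS thus stood beside the main Dp peak in signal, and Mcm2 and Cdk1 below Myb. Weaker peaks lay at dup, the fly Cdt1 that licenses replication origins (123.4), the mitotic kinase polo (119.0), Mcm5 (118.1), the mitotic cyclin CycB (98.2), the DNA polymerase alpha gene PolA1 (97.69) and the Cdc25 phosphatase gene stg (85.64), the last named outside the limit of 8 genes. CycB was in neither replicate list, and PolA1 and stg were only in that of replicate 2. The peaks at RnrS, Mcm2, Cdk1, dup, Mcm5 and stg also lay at the TSS of another gene, among them CG34231 beside RnrS and RPA1 beside Mcm2. The strongest target without a peak was geminin, the inhibitor of Dup, with 68.98 pooled and 42.32 and 23.7 in the replicates.

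**Figure D5:**
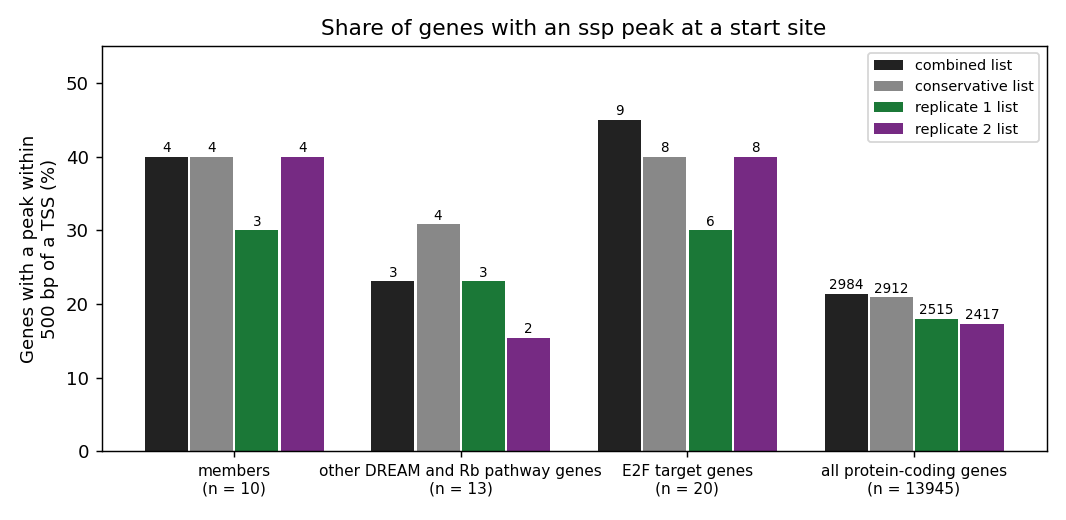
Percent of genes with an ssp peak within 500 bp of a TSS for the 10 members, 13 other pathway genes, 20 E2F target genes and all 13945 protein-coding genes, in the 4 thresholded lists, with the number of genes above each bar. The members lie at 30.0 to 40.0% and all genes at 17.3 to 21.4%, and a single gene is worth 10 percentage points among the members.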

How the data were processed

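ChIP-seq of ssp-eGFP was measured in 2 biological replicates of whole embryos, per the labels 1 group. Per the deposited notes, peaks were called on dm6 from the alignments of each replicate, or of both, each with 1 control alignment, and filtered by IDR. Which aligner and peak caller were used is not given in the sources used here. In every list the deposited signal is the peak caller's value per peak, with no scaling between lists stated. The deposited score of the ranked lists is minus log10 of the global IDR, and the authors' summit offset gave each summit position. All 4948 combined and 4719 conservative peaks were found at an IDR of at most 0.01 in one of the 2 whole-series ranked lists each, which assigned these lists. "Pooled" means both of those ranked lists, each candidate taken once. The remaining 16 columns with values in those lists carry no sample name and stayed out of every step.

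Summits were compared with the TSSs of protein-coding genes in Ensembl release 115, with windows of 500 bp and coordinates counted from 1. Sequences came from the RefSeq Release 6 reference, and annotated exons were left out of those printed. Tools were Python 3.11.15, pandas 2.3.3, numpy 2.4.6, pysam 0.24.0 and matplotlib 3.10.9. The assignment of summits was tested on simulated data. No test between groups was possible with 1 group, and none was made over lists. Named were all members, pathway and target genes with a combined peak (up to 8 a list, by signal) and the strongest without, genes sharing or nearest to a member's peak, and ssp. The members and lists were chosen with earlier results of these data known. The alternatives were windows of 200 and 1000 bp, the conservative list, each replicate alone, peaks above the median signal, the nearest TSS only, genes with a candidate and motifs within 100 bp of the summit.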

Additional observations from a re-analysis of the deposited data

How the results depend on the processing

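Dp and Myb kept their peak, and E2f1, E2f2, Rbf and Caf1-55 had none, in all 7 alternatives run for each member. Restricting to peaks above the median signal left 2 of 10 members (Dp and Myb) and 3 of 20 E2F targets, beside 14.2% of all genes. The main setting had 4 members, 9 targets and 21.4%. Single-replicate lists gave 3 and 4 members, 18.0 and 17.3% of genes, 3 and 2 pathway genes and 6 and 8 targets. Windows of 200 and 1000 bp gave 3 and 6 of the 10 members, beside 15.9 and 24.4% of all genes. Counting a peak only for its nearest TSS gave 3 members, beside 15.8%. mip130 lost its peak with a window of 200 bp, without replicate 2, among the stronger peaks and when a peak counted only for the nearest TSS. Rbf2 lost its peak among the stronger peaks, and mip120 and lin-52 gained one at 1000 bp. The cause of these changes was not tested. Motifs were also searched within 100 bp of the peak summits, or of the strongest failing candidate for members without a peak. The CHR letters occurred at 4 members, CGATA at 7, the DRE at 2 and the E2F letters at 0. Over all combined peaks at a TSS, the shares in this order were 32.0, 44.4, 10.4 and 3.51%. Over all failing candidates at a TSS they were 16.9, 25.2, 1.98 and 4.64%. These shares are per window, whereas the member counts mix peaks with failing candidates and take the 3 Dp windows together. Among members with a peak, the CHR letters were at Myb alone and CGATA at Dp, Rbf2 and Myb. Rbf, with neither in its promoter, had both at its failing candidate, so the members behind the counts changed. No paired analysis was possible because the study has 1 group. Replicates were compared as lists whose depth is unknown, the signals carry no counting error, and a summit near divergent genes cannot be assigned to one of them.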

Other observations

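PCNA, the replication clamp gene to which ssp has been linked, was chosen here after its values were seen. It had no ssp peak at a TSS. Its strongest candidate had 49.28 in the pooled lists, 23.04 in replicate 1 and 27.86 in replicate 2. The nearest combined peak to PCNA lay 5327 bp away with a signal of 1919, at the start sites of Ate1 and Hsl. The ssp gene itself had its nearest combined peak 6608 bp upstream, with a signal of 445.0. Mcm3, another helicase gene chosen after its values were seen, resembled lin-52: its strongest candidate had 12.33, while a peak of 1580 lay 1131 bp away at Rnp4F.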
